A study of Mus musculus with 16 samples.

Results

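Transcript levels in whole testes of adult mice that carry a Musashi-1 transgene (TgMsi1) were compared with those of their wild-type littermates (Wt(TgMsi1)), from 8 of the 16 arrays of the study. Arrays were assigned by their sample titles, which gave 4 TgMsi1 and 4 Wt(TgMsi1) replicates. All mice were of the B6xCBA background and 3 months old, and the transgene was labelled as overexpressed specifically in testis. The labels give neither the promoter that drives it nor the testicular cell type that expresses it, and they do not tie the replicates of a group to different animals. Each p-value therefore reflects the spread between arrays of a group, which may be technical, and that spread was estimated over all 16 arrays of the study. The other 8 arrays hold a Musashi-2 transgene (TgMsi2) and its own wild-type littermates (Wt(TgMsi2)), of the same background and age, and shared 0 arrays with the comparison described here. Total RNA was converted to biotinylated cRNA and hybridised to Illumina bead arrays, on which each transcript is read by 1 or more probes of 50 bases. Values are normalized log2 signals, so a difference of 1 is a doubling, and bead arrays give no read depth, so the number of arrays limits the precision.

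Musashi-1 is an RNA-binding protein that recognises short motifs in the messages of its targets and alters their translation, splicing or stability. In the mouse testis Musashi-1 is known mainly from spermatogonia and the supporting Sertoli cells, whereas Musashi-2 is known from later germ cells. A protein of this kind can change the amount of protein made from a message without changing the amount of the message, and arrays measure only the latter. In whole testis, fewer cells of a type and less RNA per cell cannot be told apart.

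The array design holds 1 Msi1 probe and 2 Msi2 probes, but gene names were available only for the 932 probes (840 genes) of 2 comparison tables deposited by the authors, and 0 of those read Msi1 or Msi2. The level of the transgene could therefore not be used to check the genotype labels. Arrays of the TgMsi1 group correlated with each other across probes at r between 0.989 and 0.996, and those of the Wt(TgMsi1) group at r between 0.989 and 0.995. TgMsi1 replicate 2 stood apart. On the first principal component of all 16 arrays, which held 40.9% of the variance, it lay at 10.7, and the other 7 arrays of the line lay between -13.4 and -3.59. Differences that this array moves by more than 1.5 times are given with and without it where a gene is described.

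Few probes were called as different between TgMsi1 and wild-type testes after adjustment for the number of probes tested. Of 25697 probes, 3 passed a Benjamini-Hochberg adjusted p of 0.05 in limma, which is 0.0117% of those tested, with 1 higher (0.00389%) and 2 lower (0.00778%) in TgMsi1. From the 8 arrays of the line alone, with no spread taken from the TgMsi2 line, limma called 0 probes, and 1791 had an unadjusted p under 0.05. The probe that rose reads Ppa2, the inorganic pyrophosphatase of mitochondria. The probes that fell read Ano10, a membrane protein of the anoctamin family of channels and lipid scramblases, and LOC100045782, a predicted transcript described as similar to leucine-rich repeat containing 47. At an unadjusted limma p under 0.05 stood 1881 probes (7.32%), 821 higher (3.19%) and 1060 lower (4.12%).

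The beginnings of the Ppa2 and Ano10 probes are shown because all that these arrays say of either gene's call comes from what each probe binds. The 30 bases are those of the 5′ end of each probe, read from the authors' deposited tables, with no part in capitals. The Ppa2 probe starts at base 456 of its transcript and lies at chr3:133002232-133002281 on the plus strand. The Ano10 probe starts at base 2262 of its transcript and lies at chr9:122085284-122085333 on the minus strand. The build behind these coordinates, and the part of the message (coding or untranslated) that each probe binds, were not given in the sources used here.
Ppa2 probe: ggaagatcctcacctaagagataagagcac
Ano10 probe: tctcactcggaccctcccagggccgcacac

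The called Ppa2 probe read 11.04, 11.13, 11.05 and 11.07 in TgMsi1 replicates 1 to 4, and 10.57, 10.79, 10.43 and 10.52 in the wild-type replicates. All 4 transgenic arrays lay above all 4 wild-type arrays, and wild-type replicate 2 came closest. Ppa2 rose by 0.49 on the log2 scale (SE 0.07, 95% confidence interval 0.35 to 0.64, adjusted p = 0.0444 in limma), a 1.41-fold change. Ppa2 hydrolyses the pyrophosphate released by biosynthetic reactions in the mitochondrial matrix. Its 2 other named probes had differences of 0.40 (limma adjusted p = 0.139) and 0.48 (limma adjusted p = 0.385), in the same direction, and did not pass. In the second of these the groups overlapped, since TgMsi1 replicates 1 and 3 read 11.88 and 11.79 and wild-type replicate 2 read 11.95.

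Ano10 read 8.86, 9.01, 8.95 and 8.76 in TgMsi1 and 9.23, 9.26, 9.39 and 9.36 in wild type. Every transgenic array lay below every wild-type array. Ano10 fell by 0.42 (SE 0.06, 95% confidence interval -0.54 to -0.29, limma adjusted p = 0.0483), a ratio of 0.750. LOC100045782 read 9.27, 9.59, 9.58 and 9.79 in TgMsi1 and 10.21, 10.09, 10.28 and 10.38 in wild type, again with no overlap. LOC100045782 fell by 0.68 (SE 0.09, 95% confidence interval -0.87 to -0.49, limma adjusted p = 0.0444), a ratio of 0.623. Its chromosome is not given in the deposited annotation. Ppa2, Ano10 and LOC100045782 lost their calls without TgMsi1 replicate 2, with limma adjusted p-values of 0.135, 0.103 and 0.103, while their differences were 0.47, -0.45 and -0.69. Without that array limma called 0 probes, and 1631 had an unadjusted p under 0.05. Without wild-type replicate 2 limma called 30 probes, and all 3 were among them. Over the 16 fits that each left out 1 array of the study, the Ppa2 call held in 4 (without Wt(TgMsi1) replicate 2, TgMsi2 replicate 1 or 4, or Wt(TgMsi2) replicate 4), that of Ano10 in 3 and that of LOC100045782 in 6, and limma adjusted p-values reached 0.227 for each.

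A further 10 probes had an adjusted p under 0.1 in limma and did not pass the threshold, 5 with higher and 5 with lower values in TgMsi1. Gdpd1, the second Fez1 probe and the clone 4931428L18Rik were among these and were chosen for naming after their values were seen. Fancd2, which acts in the Fanconi anaemia pathway of DNA crosslink repair, read 9.75, 9.72, 9.84 and 9.88 in TgMsi1 and 10.19, 10.16, 10.15 and 10.34 in wild type. Its groups were apart, and its difference was -0.42 (SE 0.06, limma adjusted p = 0.0632). Slc45a4, a solute carrier, had values between 9.12 and 9.22 in TgMsi1 and between 9.34 and 9.53 in wild type, a difference of -0.31. Cnst, which encodes the connexin-sorting protein consortin, had 8.73, 8.51, 8.88 and 8.74 against 9.40, 9.09, 9.46 and 9.43. Replicate 2 was the lowest array of both groups in Cnst, and the groups did not overlap (difference -0.63).

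Epsti1, an interferon-responsive gene, read 8.03, 7.84, 8.11 and 8.06 in TgMsi1 and 8.69, 8.38, 8.71 and 8.67 in wild type (difference -0.60, limma adjusted p = 0.0643). Replicate 2 was again the lowest array of both groups. Gdpd1, a glycerophosphodiester phosphodiesterase, had a difference of -0.46 (limma adjusted p = 0.0672). On the higher side, Cox20, an assembly factor of cytochrome c oxidase, read 10.24, 10.38, 10.23 and 10.37 in TgMsi1 and 9.91, 9.97, 10.12 and 10.02 in wild type (difference 0.30, limma adjusted p = 0.0643). All TgMsi1 arrays exceeded all wild-type arrays. Fez1, an adaptor of kinesin-driven transport, had differences of 0.45 (limma adjusted p = 0.0643) and 0.52 (limma adjusted p = 0.139) at its 2 probes. Ambp, the precursor of alpha-1-microglobulin and bikunin, had a difference of 0.43, the epithelial ETS transcription factor Spdef one of 0.56, and 4931428L18Rik one of 0.33 (limma adjusted p 0.0672, 0.0672 and 0.0700). Spdef read 8.47, 8.54, 8.64 and 8.48 in TgMsi1 and 7.79, 8.20, 8.02 and 7.88 in wild type, so its 2 groups did not overlap. The wild-type values of Spdef and the TgMsi1 values of Epsti1 lie near the median signal of the arrays, 7.83. Whether probes this dim were above background was not tested.

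**Figure D1:**
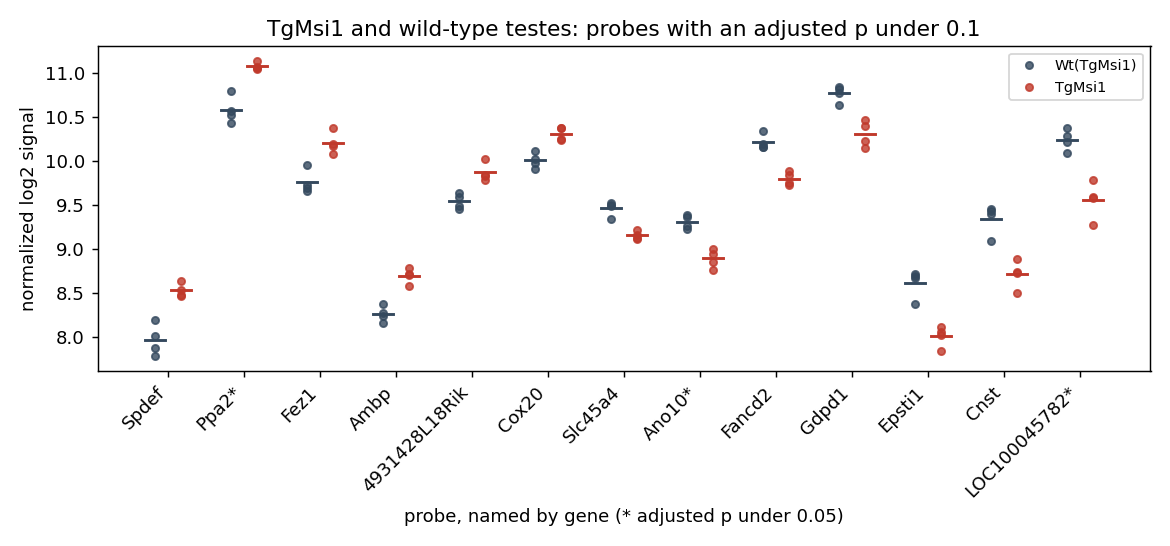
Normalized log2 signal (vertical axis) of the 13 probes with a limma adjusted p under 0.1, with 1 point per array, 4 TgMsi1 (red) and 4 Wt(TgMsi1) (dark) arrays per probe and a line at each group's mean; asterisks mark the 3 probes past 0.05. In each of the 13 probes the groups are apart, by means that differ from -0.68 in LOC100045782 to 0.56 in Spdef.

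The authors' deposited TgMsi1 table holds 246 probes of 228 genes, 128 higher and 118 lower. It was selected on the same contrast, so its counts describe that selection and test nothing. Log2 differences ran from -0.73 for Nckap1l to 0.93 for Uap1, with a median size of 0.34, and limma adjusted p-values from 0.0444 to 0.654. The groups did not overlap in 144 of the 246 probes (58.5%), against 1038 of all 25697 probes (4.04%). Higher probes without overlap numbered 71 in the table and 483 over the array (1.88%), and lower ones 73 and 555 (2.16%). Over the array 500 probes (1.95%) had a fold over 1.2 and an unadjusted limma p under 0.05, of which the table lacks 254, so many probes with like values carry no name here.

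Among named probes with an unadjusted limma p under 0.05 and no overlap, the highest differences belonged to Uap1, Gsdmd, Ott and Hoxd10, and none of them passed the threshold. Uap1, which makes the sugar donor UDP-N-acetylglucosamine, read 9.01, 9.91, 9.0 and 9.17 in TgMsi1 and 8.06, 8.18, 8.91 and 8.22 in wild type. Its difference of 0.93 (SE 0.23, limma adjusted p = 0.264) was 0.72 without TgMsi1 replicate 2, and wild-type replicate 3 lay just below the lowest transgenic array. Ott, an X-linked gene transcribed in ovary and testis, read 11.82, 11.69, 11.56 and 11.66 in TgMsi1 and 11.13, 11.13, 10.96 and 10.56 in wild type. Ott showed no overlap at either of its 2 probes, with differences of 0.74 and 0.49 (limma adjusted p 0.139 and 0.340), and it belongs to a multicopy family whose members a probe can share. Gsdmd, the pore-forming effector of pyroptosis, read 9.73, 9.81, 9.58 and 9.60 against 8.73, 9.42, 8.78 and 8.76 (difference 0.76, limma adjusted p = 0.139). Wild-type replicate 2 lay much nearer to the transgenic arrays than the other wild-type arrays did, and a second Gsdmd probe had a difference of 0.92, also without overlap.

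The same wild-type array resembled the transgenic group in other genes with high differences. Tbx1, a T-box transcription factor, read 9.59, 9.62, 9.72 and 9.66 in TgMsi1 and 8.50, 9.62, 8.79 and 8.50 in wild type, so the groups overlapped through wild-type replicate 2 alone (difference 0.79, limma adjusted p = 0.292). Fxyd2, a regulatory subunit of the sodium pump, read 9.79 to 9.87 in TgMsi1, with 9.86 in wild-type replicate 2 and 8.72 to 8.97 in the other 3. Nr4a3, a nuclear receptor, read 8.94 to 9.11 in TgMsi1, with 8.99 in wild-type replicate 2 and 8.33 to 8.41 in the others. Without wild-type replicate 2 these 3 genes passed the threshold, with differences of 1.05, 0.97 and 0.67 and limma adjusted p-values of 0.00921, 0.00159 and 0.000762. The 3 are described because that array lay among the transgenic ones, so these figures follow from the choice and test nothing. Tnfrsf10b, a death receptor for TRAIL, had differences of 0.58 at both of its probes with no overlap (limma adjusted p 0.292 and 0.313).

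The other high differences were those of Chpt1, Ifngr2, Rnaset2b, Lamp2 and Cd59a. Chpt1, a choline phosphotransferase that completes phosphatidylcholine synthesis, had 3 probes with differences of 0.55, 0.54 and 0.41 and no overlap at any of them. Lamp2, a lysosomal membrane protein, had a difference of 0.46 at 1 probe without overlap, and 0.33, 0.28 and 0.19 at 3 further probes whose groups overlapped. Ifngr2, a chain of the interferon gamma receptor, had 0.50, the ribonuclease Rnaset2b 0.47, and Cd59a, an inhibitor of the complement attack complex, 0.46. At the probe with the smallest p of each gene, limma adjusted p-values lay between 0.255 for Chpt1 and 0.675 for Cd59a. Hoxd10, a homeobox gene, had 0.63 (limma adjusted p = 0.492), with 9.39 in TgMsi1 replicate 2 against 8.51 to 8.75 in the other transgenic arrays.

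The lowest differences among the same named probes belonged to Nckap1l, Rasgrf1, Cpa5, Cnst, Ptprv and Epsti1, and none of these passed. Nckap1l, a WAVE complex subunit of blood cells, read 9.34, 8.92, 9.36 and 9.50 in TgMsi1 and 9.69 to 10.22 in wild type (difference -0.73, limma adjusted p = 0.155). Replicate 2 was the lowest array of both groups, and the groups were apart. Rasgrf1, an activator of Ras, read 8.49, 8.28, 8.46 and 8.58 against 9.48, 8.79, 9.02 and 9.23 (difference -0.68, limma adjusted p = 0.155), and a second probe had a difference of -0.54, also without overlap. Cpa5, a carboxypeptidase, had -0.67, with 8.87 in TgMsi1 replicate 2 and 9.77 to 10.02 in the other transgenic arrays, and -0.41 without that array. The phosphatase gene Ptprv had -0.61, and its TgMsi1 arrays read 7.87 and 7.83 in replicates 1 and 2 and 8.72 and 8.68 in replicates 3 and 4. In replicates 1 and 2 it thus lay near the median signal of the arrays, 7.83.

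Adam30, a membrane protease of the ADAM family, had a difference of -0.57, Gstcd -0.57, the neuropeptide precursor Npb -0.57 and Qrich2, which is needed for sperm flagella, -0.56. Ankmy1 (-0.54) and Iqca1l (-0.56) completed the set. Their limma adjusted p-values lay between 0.226 and 0.483. At a second Qrich2 probe the difference was -0.38 and the groups were also apart. Without TgMsi1 replicate 2, Gstcd and Iqca1l had -0.33 each, Adam30 -0.43 and Qrich2 -0.61.

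Some genes were read by more than 1 probe. A total of 15 genes had 2 or 3 probes in the authors' deposited TgMsi1 table, and at all 15 the probes of a gene lay in 1 direction. Each of these probes was chosen for its difference on the same arrays, and genes with only 1 probe in that table were left out. The shared direction therefore tests nothing. Ppa2, Chpt1 and Uck2 had 3 probes each. Mfn1, a mitochondrial fusion protein, had -0.34 and -0.30, and Nos3, the endothelial nitric oxide synthase, -0.42 and -0.39. Zw10, a kinetochore protein, had -0.38 and -0.33, and Snrpd1, a core protein of spliceosomal particles, 0.34 and 0.33.

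A gene of the lists below has a value only if a deposited table names it, which bears on the sign of its difference. Members of the TgMsi1 table have the sign for which they were selected. Of probes in the TgMsi2 table alone, 366 of 401 that are higher there were also positive in TgMsi1 (median 0.18), and 266 of 285 that are lower there were negative (median -0.21). The lists are read against these figures and not against the median of all 25697 probes, which was 0.0001.

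Of 56 mitochondrial and respiratory genes of the list that the array holds, 7 had a named probe, all 7 with a positive difference and a median of 0.30. Of these, 3 stand in the TgMsi1 table and have the sign for which they were selected. The other 4 are higher in the TgMsi2 table, and their sign is that of 366 of 401 such probes. Of the 7, 1 passed (Ppa2). Cox20 (0.30) and Acaa2, a thiolase of fatty acid oxidation (0.44), showed no overlap, and Acaa2 read 8.92 to 9.04 in TgMsi1 and 8.29 to 8.73 in wild type. Cmc1, another protein of cytochrome c oxidase biogenesis, had 0.42, and Ssbp1, which binds single-stranded mitochondrial DNA, had 0.27. Mfn1, in neither the list nor among these, had the negative differences given above. In the deposited gene ontology columns, the word mitochondrion stood with 8 of the 128 higher probes (6.25%) and 2 of the 118 lower probes (1.69%). Of the 8, 3 read Ppa2, and the 2 lower ones read Mfn1. In the TgMsi2 table alone the word stood with 9.48% of the higher and 2.11% of the lower probes, so the same lean is found there. Cmc1, Ssbp1 and Mfn1, with the genes of the next 2 paragraphs that stand in no list, were chosen after their values were seen.

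Of 60 genes of RNA binding and translation control on the array, 3 had a named probe, and 0 passed. Pabpc2, a testis-enriched poly(A)-binding protein, read 13.49, 13.12, 13.47 and 13.57 in TgMsi1 and 13.87, 13.78, 13.77 and 13.98 in wild type (difference -0.44, limma adjusted p = 0.133). Ybx3, a Y-box protein that holds germ cell messages in store, read 9.80, 9.98, 9.88 and 9.69 against 9.68, 9.47, 9.18 and 9.60 (difference 0.36, limma adjusted p = 0.334). Both kept their groups apart, Pabpc2 lower and Ybx3 higher. Rbmxl2, a nuclear RNA-binding protein of germ cells, had 0.29 with overlap. Of 20 reported Musashi targets and Notch genes on the array, 2 had a named probe, Tbx1 (0.79) and Ttyh1 (0.15, and 0.04 without TgMsi1 replicate 2), and 0 passed.

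In the deposited ontology columns translation stood with 4 higher probes (3.1%) and 0 lower ones, against 0.50% and 0.35% in the TgMsi2 table alone. Only named probes carry these columns, so the share over the array is not known, and these counts describe selected tables. Of the 4, 2 read Tarsl2, and the others read Eef1b2, an elongation factor subunit (0.33), and Mrpl48, a mitochondrial ribosomal protein (0.28). The poly(C)-binding protein Pcbp2 had 0.28 and the signal recognition particle protein Srp9 had 0.34. The word transcription stood with 9 of the 128 higher (7.03%) and 10 of the 118 lower probes (8.47%), against 2.49% and 5.61% in the TgMsi2 table alone. RNA splicing stood with 3 and 2 (2.34% and 1.69%), against 0% and 0.35%, and 2 of the 3 read Snrpd1. RNA binding stood with 4 and 2 (3.1% and 1.69%), against 1.25% and 2.46%, and 2 of the 4 read Srp9. Among the lower probes were those of Tbp, the TATA-binding protein (-0.38), the Mediator subunit Med26 (-0.34), the RNA polymerase I subunit Polr1a (-0.35), the ribosomal RNA processing protein Rrp12 (-0.37), the splicing factor subunit Sf3a3 (-0.35) and Smg6 (-0.28), a nuclease of nonsense-mediated decay. Of these 6, all had groups apart and 0 passed, with limma adjusted p-values from 0.133 to 0.296. Med26 read 12.10, 12.04, 11.96 and 12.09 in TgMsi1 and 12.39, 12.45, 12.31 and 12.42 in wild type. Dcp1a, a cofactor of mRNA decapping, had -0.45 (limma adjusted p = 0.153). Zinc ion binding stood with 6 higher (4.69%) and 18 lower probes (15.3%), against 6.48% and 11.6% in the TgMsi2 table alone. Of the 18, 2 read Nos3. Protein transport stood with 0 and 6 (5.08%), against 0.998% and 2.11%, and 2 of the 6 read Zw10. On the X chromosome lay 8 of the 128 higher probes and 0 of the 118 lower ones, beside 27 of 401 and 12 of 285 in the TgMsi2 table alone. Of the 8, 2 read Ott and 2 read Gm773, and the X-linked share over the array is not known here.

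The direction of a probe in the deposited TgMsi1 table went with the base at which it starts, counted from the 5′ end of its transcript. Transcript lengths and distances to the 3′ end were not determined. A late start therefore cannot be told apart from a long transcript, here and in the values below. Of probes that start within the first 1000 bases, 68 of 79 were higher (86.1%). The share was 46 of 73 (63.0%) from base 1001 to 2000, 10 of 38 (26.3%) from 2001 to 3000 and 4 of 56 (7.14%) beyond 3000. The median start was base 939 for higher and 2866.5 for lower probes, against 1473 and 1342 for probes that stand only in the TgMsi2 table and are higher or lower there. These are descriptions of a selected table. Among the 686 probes of the TgMsi2 table alone, which were not selected on these arrays, the median TgMsi1 difference was lower in each later class, in both directions. Over probes higher in TgMsi2 it was 0.19, 0.18, 0.17 and 0.15 from the first class to the last, and 0.16, 0.12, 0.07 and 0.06 without TgMsi1 replicate 2. Over probes lower in TgMsi2 it was -0.18, -0.22, -0.24 and -0.27, and -0.01, -0.10, -0.14 and -0.19 without that array. TgMsi1 replicate 2 itself rose with position over the probes higher in TgMsi2, at 0.26, 0.39, 0.43 and 0.44. Over all 686 probes together the median TgMsi1 difference was 0.05, 0.05, 0.06 and 0.08, and so did not fall from the first class to the last. Wild-type arrays themselves differed with position: over these probes replicate 2 lay at -0.31, -0.20, -0.14 and -0.09 from the mean of the other 3, and replicate 3 at 0.17, 0.11, 0.01 and -0.03. The part of this in the gene differences above was not tested.

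**Figure D2:**
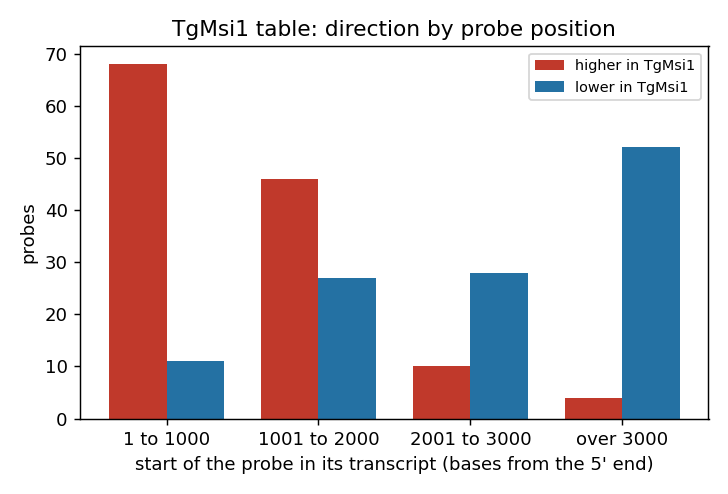
Number of probes of the authors' deposited TgMsi1 table (vertical axis) that were higher (red) or lower (blue) in TgMsi1, by the start of the probe in its transcript in bases (horizontal axis). Higher probes make up 68 of 79 that start within the first 1000 bases and 4 of 56 beyond base 3000. Transcript length was not determined.

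Of the cell type markers with a value, 0 passed. Values exist only for markers in the deposited tables, mostly through the TgMsi2 table. All 6 Leydig and steroidogenesis genes with a value (of 21 on the array) had positive differences, with a median of 0.27 (0.20 without TgMsi1 replicate 2), and 0 had groups apart. All 6 are higher in the TgMsi2 table, so their sign is that of 366 of 401 such probes. Insl3, a Leydig cell hormone, read 13.41, 13.41, 13.32 and 12.85 in TgMsi1 and 13.22, 12.47, 13.24 and 12.77 in wild type (difference 0.32, limma adjusted p = 0.776). Replicate 4 of TgMsi1 lay among the wild-type arrays. Of 6 Sertoli markers with a value (of 20), 5 had positive differences, with a median of 0.11. Without TgMsi1 replicate 2, 2 were positive and 4 negative, with a median of -0.007. Cldn11, a tight junction protein of Sertoli cells, had 0.12, and -0.01 without TgMsi1 replicate 2, which read 13.94 against 13.38 to 13.51 in the other 3.

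The only endothelial marker with a value, Robo4, had 0.31 and read 9.35 in TgMsi1 replicate 2 but 7.96 to 8.17 in the other transgenic arrays and 7.93 to 8.26 in wild type. Without that array the difference was -0.01. Of 6 macrophage and immune markers with a value (of 19), 1 had a positive and 5 a negative difference, with a median of -0.10. The 5 are higher in the TgMsi2 table. Without TgMsi1 replicate 2, 3 of the 6 were positive and 3 negative, with a median of 0.02. Lyz1, a lysozyme gene of this list, read 9.41 in TgMsi1 replicate 2 and 10.76 to 11.11 in the other TgMsi1 arrays (difference -0.21, and 0.16 without that array). Of 3 myoid markers, 2 were positive. Blood, epididymis and spermatogonial markers, of which the array holds 4, 9 and 18, had 0 named probes, so spermatogonia could not be described.

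Of the meiotic list 2 of 31 genes on the array had a value, Aurkc (-0.29) and Ccna1 (-0.34), of the round spermatid list 4 of 26 (median -0.29), and of the elongating spermatid list 2 of 23, Gapdhs and Prm3. All 8 were negative and 0 passed. A deposited table lists each of the 8 as lower, 2 through the TgMsi1 arrays and 6 through the TgMsi2 arrays. The 2 have the sign for which they were selected. The 6 were not selected on the TgMsi1 arrays, and their sign is that of 266 of 285 such probes. Without TgMsi1 replicate 2 the median of the 4 round spermatid genes went from -0.29 to -0.13. Gapdhs, the glycolytic enzyme of sperm, read 13.63, 13.35, 13.61 and 13.68 in TgMsi1 and 13.84, 13.78, 13.89 and 13.99 in wild type, with no overlap (difference -0.31, limma adjusted p = 0.250). Prm3, a protamine-related gene of late spermatids, read 11.73, 10.29, 11.52 and 11.44 against 12.27, 11.57, 12.35 and 12.18 (difference -0.85, limma adjusted p = 0.354). Replicate 2 was the lowest array of both groups in Prm3, and the difference without TgMsi1 replicate 2 was -0.53. For Spaca4 and Catsper4, genes of the sperm head and of the sperm calcium channel, differences of -0.42 and -0.37 became -0.17 and -0.11 without that array. Adipoq, a hormone of fat cells, had -1.09 (limma adjusted p = 0.362), from 10.76, 9.31, 10.88 and 10.53 in wild type to 9.79, 8.49, 9.59 and 9.25 in TgMsi1, again with replicate 2 lowest in both groups.

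Of the other lists, 6 of 7 interferon response and antigen presentation genes were positive (median 0.18), with Epsti1 the exception, and the 6 are all higher in the TgMsi2 table, where the median of such probes was also 0.18. Of 14 acute phase and secreted proteins, 12 of them higher in the TgMsi2 table alone, 11 were positive (median 0.20), and 9 were without TgMsi1 replicate 2 (median 0.09). Of 5 mitotic cell cycle and DNA damage genes 4 were positive and Fancd2 was negative. All 3 heat shock and unfolded protein genes were positive (median 0.19, and 0.10 without TgMsi1 replicate 2). Membrane and vesicle transport genes had 7 positive and 6 negative values (median 0.01), 5 and 8 without TgMsi1 replicate 2, and 1 of these 13, Ano10, passed. Outside Ppa2 and Ano10, 0 members of the 23 lists passed.

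The TgMsi1 differences were then set beside those of the TgMsi2 line, which shares no array with them. Of the 121 probes that only the TgMsi1 table lists as higher, 90 were also higher in TgMsi2 against its own wild type, with a median of 0.16 there and 0.34 in TgMsi1, and 20 passed as higher and 2 as lower in TgMsi2. Of the 111 listed as lower, 101 were lower in TgMsi2, with medians of -0.28 and -0.33, and 46 passed as lower. Over all probes 2960 passed in TgMsi2 (11.5%). All 14 probes that stand in both tables had the same direction in both lines, among them probes of Gsdmd, Tbx1, Fxyd2, Tnfrsf10b, Nckap1l, Rasgrf1, Epsti1 and Pabpc2. Ppa2 had 0.51 and Ano10 -0.28 in TgMsi2, and LOC100045782 -0.49. Ott was among those without such a likeness, with 0.74 in TgMsi1 and 0.07 in TgMsi2, but the difference between lines was not called for any of these 232 probes.

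**Figure D3:**
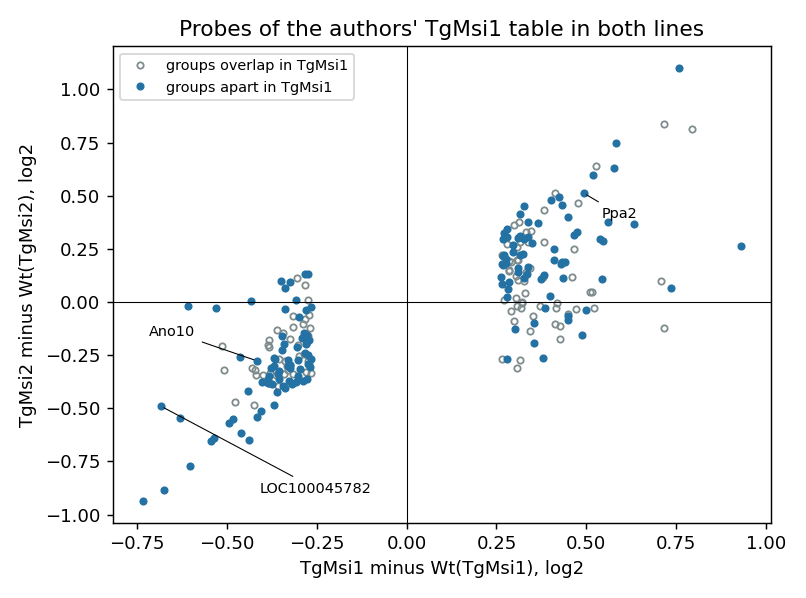
Log2 difference from wild type in TgMsi1 (horizontal axis) and in TgMsi2 (vertical axis) for the 246 probes of the authors' deposited TgMsi1 table, filled where the 4 TgMsi1 and 4 Wt(TgMsi1) arrays did not overlap. The gap around 0 on the horizontal axis comes from the table's own selection, and most points lie in the quadrants where both lines have the same sign.

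Probes of the TgMsi2 table that the TgMsi1 table does not hold were not selected on the TgMsi1 arrays. Of the 401 that are higher in TgMsi2, 366 had a positive TgMsi1 difference, with a median of 0.18 against 0.74 in TgMsi2. The groups did not overlap in 21 of them (5.24%), which is near the 4.04% of all probes on the array. Of the 285 that are lower, 266 had a negative TgMsi1 difference, with a median of -0.21 against -0.72, and 34 had groups apart (11.9%). Without TgMsi1 replicate 2 the medians were 0.11 and -0.08, with 330 of the 401 positive and 204 of the 285 negative. That array had median deviations of 0.37 and -0.60 from wild type on the 2 sets. The other 3 TgMsi1 arrays had 0.21, 0.14 and -0.01 on the higher set and -0.10, -0.10 and -0.08 on the lower set. Wild-type arrays ranged from -0.22 to 0.17 on the higher set and from -0.21 to 0.12 on the lower set. TgMsi1 replicates 3 and 4 lay within that range on the higher set, and replicates 1, 3 and 4 on the lower set. The low end of the lower set was wild-type replicate 2 alone. Wild-type replicates 1, 3 and 4 had 0.03, 0.09 and 0.12 there, above all TgMsi1 arrays.

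**Figure D4:**
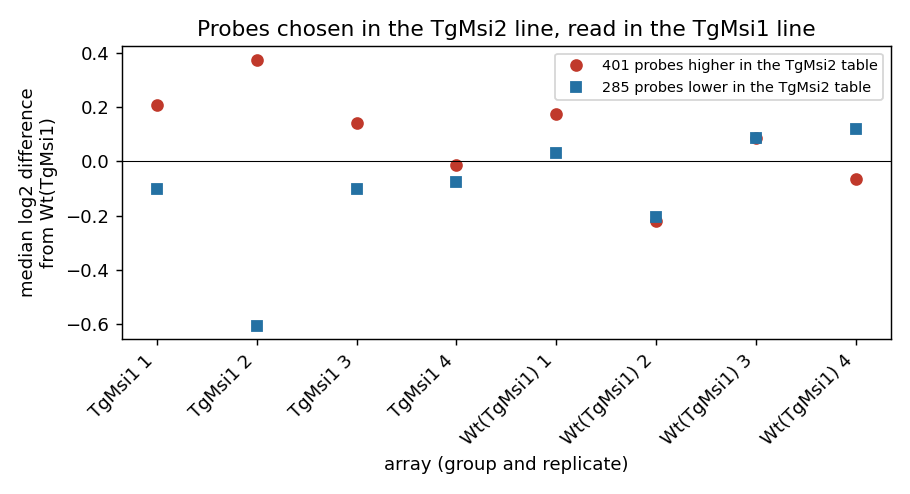
Median log2 deviation (vertical axis) of each of the 8 arrays of the TgMsi1 line over 401 probes higher and 285 probes lower in the TgMsi2 table, taken from the mean of the 4 Wt(TgMsi1) arrays for TgMsi1 arrays and from the mean of the other 3 for each wild-type array. TgMsi1 replicate 2 lies at 0.37 and -0.60, and the lower set of the other TgMsi1 arrays lies between -0.10 and -0.08.

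The 2 transgene effects differed at 2 of 25697 probes (0.00778%) in limma's interaction test, with 2821 (11%) at an unadjusted p under 0.05. Tm9sf2, a membrane protein of the endosomal and Golgi system, had a difference of 0.03 in TgMsi1 and -0.61 in TgMsi2. Its TgMsi1 arrays read 8.82, 8.81, 8.69 and 8.80 and their wild types 8.86, 8.64, 8.65 and 8.83, which overlapped. The effects differed by 0.64 (SE 0.08, limma adjusted p = 0.0426). The other probe, ILMN_1377919, has no gene name here and had 0.05 in TgMsi1 and 0.49 in TgMsi2 (difference of effects -0.44, limma adjusted p = 0.0426). Without TgMsi1 replicate 2, the array nearest to the TgMsi2 arrays on the first component, limma called 107 probes in this test.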

How the data were processed

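Per the labels, total RNA of 16 testis samples was measured on Illumina arrays, and GenomeStudio is named in the submitters' processing notes. The deposited log2 values of 25697 probes ran from 7.37 to 14.51; their normalization was not given in the sources used here, and the sorted columns differed by at most 0.00601. The authors also deposited 2 comparison tables, with an unadjusted p-value, a ratio and a signed fold score per probe, per the file headers; these gave gene names, positions and sequences. Of 932 named probes, 849 matched RefSeq (GRCm38.p6) by Entrez number and 144 symbols were updated. The signals of an unnormalized table were not used, because its 128 columns carry slide positions that match no sample label; its gene symbols showed which genes the array holds.

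limma 3.58.1 (R 4.3.3) fitted 1 mean per group over all 16 arrays, with no filter or covariate; p-values were adjusted by Benjamini-Hochberg over 25697 probes. In simulated data of 25697 probes for TgMsi1, limma recovered 62 of 100 planted changes of 0.5 and 95 of 100 planted changes of 1. Of its 162 calls there, 5 were false. The real arrays gave 3 calls, and the Benjamini-Hochberg cut is stricter when fewer probes pass. These shares therefore do not tell how many real changes were missed, or how many calls were false, in the TgMsi1 comparison. Genes named were all called probes, the 12 highest and 12 lowest differences among named probes with an unadjusted p under 0.05 and no overlap (no predicted genes), up to 3 members per list by p, further probes of these genes, and genes in both tables; 28 probes were added after their values were seen. Members, 23 gene lists and tests were chosen with earlier results of these data known. Alternatives were an intensity trend with robust variance, array weights, a brightness filter, cyclic loess, replicate blocks, the 8 arrays alone and leaving out each array.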

Additional observations from a re-analysis of the deposited data

Results flagged for a closer look

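In 24 of 236 groups of 4 arrays tested, over the probes named here, 1 array lay far from the other 3 (its gap to the nearest passed Dixon's 95% critical value, as chance gives in about 1 in 20 groups). The groups are not independent, since they come from the same 8 arrays. In log2 signal, Wt(TgMsi1) replicate 2 was low for Hoxd10 (7.87, others 8.25 to 8.30), Cd59a (10.10, others 10.57 to 10.64), Npb (9.04, others 9.45 to 9.50), Cnst (9.09, others 9.40 to 9.46), Epsti1 (8.38, others 8.67 to 8.71) and Cst3 (11.70, others 12.14 to 12.18) and high for Gsdmd (9.42, others 8.73 to 8.78), Tnfrsf10b (9.49, others 9.01 to 9.08), Fez1 (10.38, others 9.93 to 9.98) and Nr4a3 (8.99, others 8.33 to 8.41). In log2 signal, TgMsi1 replicate 2 was low for Npb (8.32, others 8.94 to 9.01), Gstcd (8.75, others 9.64 to 9.76) and Zw10 (8.76, others 9.15 to 9.18) and high for Robo4 (9.35, others 7.96 to 8.17) and Tarsl2 (9.45, others 8.79 to 8.84). In log2 signal, Wt(TgMsi1) replicate 3 was low for Chpt1 (9.82, others 10.59 to 10.61) and Smarca2 (12.34, others 12.72 to 12.74) and high for Fcer1g (8.35, others 7.52 to 7.64) and Ifngr2 (9.72, others 9.31 to 9.34). In log2 signal, TgMsi1 replicate 4 was low for Snrpd1 (10.85, others 11.08 to 11.10) and high for Ube2k (13.10, others 12.69 to 12.76). In log2 signal, TgMsi1 replicate 1 was low for Polr1a (10.28, others 10.57 to 10.57). In log2 signal, Wt(TgMsi1) replicate 1 was low for Srp9 (10.77, others 11.06 to 11.11). In log2 signal, Wt(TgMsi1) replicate 4 was low for Ptprv (8.80, others 8.91 to 8.92). 

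The effects of the 2 transgenes differed in limma's interaction test at Tm9sf2, by 0.64 (0.03 in TgMsi1 and -0.61 in TgMsi2), and at the unnamed probe ILMN_1377919, by -0.44 (0.05 and 0.49). Leaving out TgMsi1 replicate 2 took the number of such probes from 2 to 107.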

How the results depend on the processing

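The 3 calls of the TgMsi1 comparison became 7 when eBayes used a brightness trend and robust variances, 5 with array weights, 8 in probes with a mean log2 above 8, 4 with cyclic loess, and 0 from the 8 arrays of the line alone, with 1791 probes at an unadjusted limma p under 0.05. Ppa2 and Ano10 were not among the 7. Leaving out 1 array gave 0 to 30 calls, namely 30 when Wt(TgMsi1) replicate 2 was dropped, 5 for TgMsi2 replicates 1 and 4, 3 for Wt(TgMsi2) replicate 4, and 0 or 1 for each other array. With the replicate number as a random block limma called 3 probes, and as a fixed block in the 8 arrays 0, with 2285 at an unadjusted p under 0.05. Deviations of same-numbered arrays correlated at r of 0.02, 0.29, 0.44 and 0.17, and since not every pair passed 0.1 and no label ties the numbers, they were not taken to pair the arrays; 2 of the 4 TgMsi1 arrays correlated best with the wild-type array of their own number. The 2 calls of the interaction test became 12 with the trend and robust variance and 0 to 107 with 1 array left out; 2 or 3 were called under array weights, brightness filter, random block and loess, and the 8 arrays alone cannot give this test.

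Of the 118 named probes, 7 changed sign when 1 array was left out, and 0 under any other alternative. The lowest and highest differences were -0.013 (without TgMsi1 replicate 2) and 0.45 for Robo4, -0.0095 (without TgMsi1 replicate 2) and 0.20 for Cldn11, and -0.41 and 0.16 (without TgMsi1 replicate 2) for Lyz1. They were -0.064 (without Wt(TgMsi1) replicate 3) and 0.098 for Ube2k, -0.13 and 0.043 (without TgMsi1 replicate 4) for Mylk, -0.11 and 0.076 (without Wt(TgMsi1) replicate 4) for Usp2, and -0.0015 (without Wt(TgMsi1) replicate 2) and 0.072 for Tm9sf2. The cause was not tested. With 4 arrays per group and no deposited value near 0, differences of dim probes may be understated.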
